A study of Mus musculus with 18 samples.

Results

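The lacrimal gland (LG) of the BALB/c control strain was followed over its whole sampled span by comparing mice of 6 months (6M) with mice of 2 months (2M). The comparison used 6 of the 18 libraries of the series, chosen by their strain and age labels, with 3 male BALB/cJ mice at each age. Each library was made from 1 whole LG of 1 mouse, after the capsule and the surrounding tissue had been removed, and no mouse received a treatment. The 3 male BALB/cJ mice of 4 months (4M) were used only to place changes within the span, and the 6 male NOD.B10Sn-H2b/J mice of 2M and 6M (NOD.H-2b, the model of Sjögren's syndrome in this study) only to test whether a change differed between strains. Of 54232 genes in the count table, 28131 had at least 1 count in the 6 mice and 16579 had enough counts to be tested.

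The LG makes the watery layer of the tear film. Its acinar cells synthesize secretory proteins on a large rough endoplasmic reticulum (ER), store them in granules and release them when nerves act on muscarinic and peptide receptors, while ductal cells modify the fluid with ion channels and transporters and myoepithelial cells contract around the acini. In rodents many of the tear proteins (secretoglobins, exocrine gland-secreted peptides and lipocalins) belong to families that have expanded into clusters of near-identical genes and that differ between sexes and strains, and plasma cells in the stroma provide the dimeric IgA of tears.

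Total counts were between 57094775 and 63309172 per mouse at 2M and between 50032070 and 103936830 at 6M, where replicate 1 was the deepest. Secretoglobins took 33.9% to 35.4% of the counts at 2M and 33.8% to 35.6% at 6M, whereas the summed level of 17 salivary gland markers was 142 to 143 CPM (counts per 1000000 counts of the scaled library) at 2M and 146 to 151 at 6M and that of 15 skeletal muscle markers was at most 2.14. Transcripts of the mitochondrial chromosome took 1.55% to 1.63% of the counts at 2M and 2.02% to 2.41% at 6M. One library stood apart from the other 5: in 6M replicate 3 the summed level of 9 heat shock genes was 503 CPM against 177 to 235 in the other 5 mice, 19 immediate early genes summed to 424 CPM against 174 to 321, and 19 circadian clock genes to 583 CPM against 785 to 940. At 4M these sums were 159 to 200, 187 to 215 and 625 to 714 CPM. For clock genes the 4M mice thus also lay below the other 5 mice. The part that these values have in the results was not tested, and the count of called genes in a list is given also without this mouse where that moved it by over 1.5 times.

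A gene was called when edgeR's quasi-likelihood test gave an adjusted p (Benjamini-Hochberg over all genes tested, FDR) under 0.05, and was a DEG when it also changed at least 2-fold. Levels are CPM after TMM normalization, and each log2 fold change is that of 6M over 2M with its standard error (SE), for 3 mice against 3. At 6M, 260 genes were DEGs with higher expression (1.57% of genes tested) and 19 with lower expression (0.115%). Without the fold threshold, 577 genes were called higher (3.48%) and 353 lower (2.13%), together 5.61%, and the median log2 fold change of all genes tested was 0.01. The shares of 3.48% and 2.13% are the background for the counts of each list below. The 3 mice of 6M did not overlap those of 2M in 4471 genes (27%). All 260 higher and all 19 lower DEGs were among these, so that separation of the mice does not set one DEG apart from another. The split between higher and lower calls moved with the scaling and the samples fitted, to 454 higher and 565 lower with total counts only and to 478 and 198 in a fit of all 18 mice, whereas the DEGs were 244 and 24 with total counts only and 278 and 23 in the fit of 18 mice. Without 6M replicate 3, 405 and 68 genes were DEGs and 1223 and 1211 were called, and over the other 5 fits that each left out 1 mouse DEGs numbered 167 to 242 and 8 to 19. The lowest count of higher DEGs was found without 2M replicate 3.

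Immunoglobulin genes made up 91 of the 260 higher DEGs (35.0%) and none of the lower ones, and 136 of the higher and 13 of the lower DEGs were other protein-coding genes. The higher DEGs other than immunoglobulin genes had a median log2 fold change of 1.64 and the lower ones of -1.27, and 75 of those 169 had an average level under 1 CPM. Of the 260 higher DEGs 130 were called in each of the 6 fits without 1 mouse, and of the 19 lower DEGs 5 were.

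**Figure D1:**
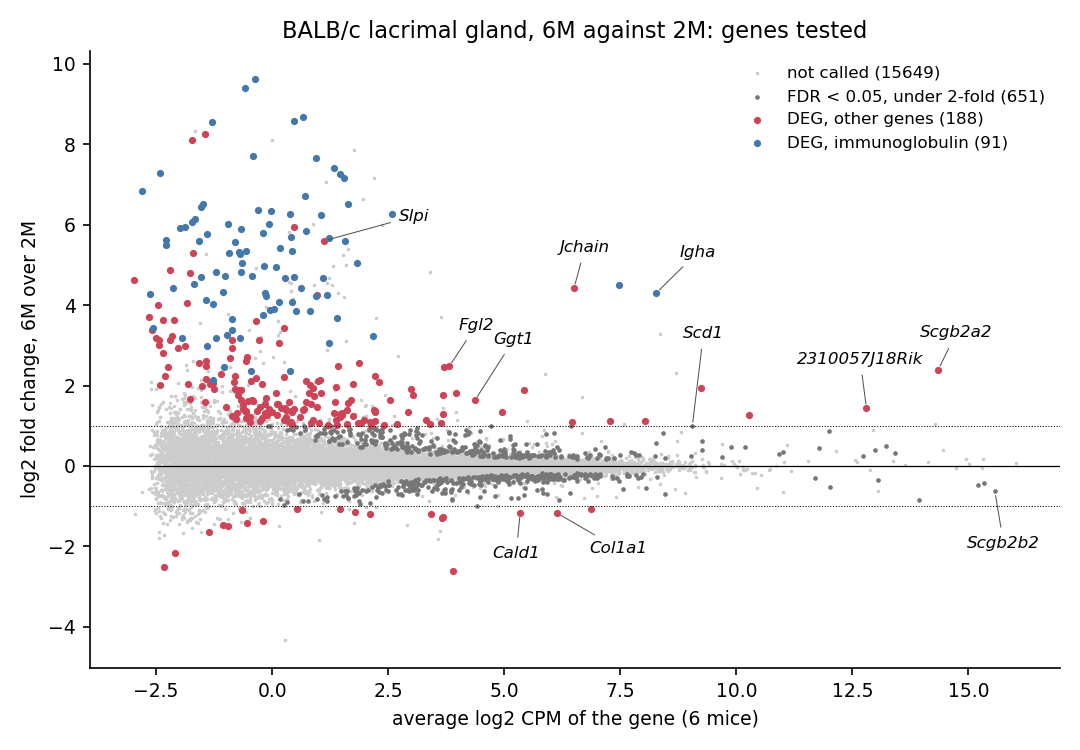
Each point is 1 of the 16579 genes tested, with its average log2 CPM over the 6 BALB/c mice on the horizontal axis and its log2 fold change, 6M over 2M, on the vertical axis. All 91 immunoglobulin DEGs lie above 0, the 188 other DEGs lie on both sides of it, and the 651 genes called with less than a 2-fold change lie close to 0 among the 15649 genes not called.

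Among the abundant tear protein genes, a mammaglobin-like secretoglobin rose and a cluster pair fell. Scgb2a2 (chr19:9847562-9852808, forward strand, GRCm38), which encodes a secretoglobin of the mammaglobin group, had 8737, 6493 and 5154 CPM in the 3 mice of 2M and 30858, 37156 and 38942 CPM in those of 6M. Every 6M mouse was above every 2M mouse, with a log2 fold change of 2.40 ± 0.23 and an adjusted p of 0.0107 (5.26-fold). Scgb2b2 (chr7:31290508-31304977, forward strand), of the androgen-binding protein beta type, had 59398, 56935 and 64171 CPM at 2M and 38277, 39411 and 38418 CPM at 6M, with a log2 fold change of -0.63 ± 0.06 and an adjusted p of 1.1e-04. Its neighbour Scgb1b2 on the other strand, an alpha-type partner, had 49003, 46384 and 50373 CPM at 2M and 33541, 37703 and 36812 CPM at 6M (log2 fold change -0.43 ± 0.06, adjusted p = 0.00259). The groups did not overlap for either gene. Scgb1b2 and Scgb2b2 overlap on opposite strands in the GENCODE M21 models used here, and since the library kit does not mark the strand, reads of the overlap cannot be assigned to one of them. Scgb2b3 was lower too, at 3540.3, 3182 and 3685 CPM at 6M against 4777, 5126 and 5073 CPM at 2M (log2 fold change -0.52 ± 0.06, adjusted p = 7.4e-04). The call was lost for Scgb2a2 without 6M replicate 2 (adjusted p = 0.0691) and with the replicate number as a block (adjusted p = 0.051), and Scgb2b3 in the fit of 9 BALB/c mice and in the fit of 18 mice (adjusted p up to 0.108).

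Other members of the same cluster on chromosome 7 were not called, among them Scgb2b20, whose upstream sequence is printed below. Scgb2b7 (63578, 65679 and 67396 CPM at 2M and 68497, 64081 and 75213 CPM at 6M) had a log2 fold change of 0.08 ± 0.07 and an adjusted p of 0.513, and the most abundant alpha-type genes Scgb1b7 and Scgb1b20 had log2 fold changes of 0.16 and 0.16 (adjusted p = 0.136 and 0.165). Per kilobase of exon, the mean level over the 6 mice was 99771 CPM for Scgb1b2, 98201 for Scgb1b7, 84360.3 for Scgb2b2, 71863 for Scgb2b7, 64219 for Scgb2b20 and 19172 for Scgb2a2. Over the whole list of 27 secretoglobins, 23 were tested, 2 were called higher (8.70% against 3.48% of all genes) and 3 lower (13.0% against 2.13%), 18 were not called and the median log2 fold change was -0.05. The other member called higher was Scgb1b29, at 8.11, 8.79 and 8.31 CPM at 2M and 10, 12.1 and 12.5 CPM at 6M. Its call was lost without each 2M mouse and 6M replicate 2 in turn (adjusted p up to 0.0961), so that without 6M replicate 2 no secretoglobin was called higher. The median without 6M replicate 3 was 0.01. The pseudogene Scgb2b1, chosen after its values were seen, was the DEG with the largest decrease at 21.5, 29.4 and 26.8 CPM at 2M and 5.02, 3.99 and 3.48 CPM at 6M, with a log2 fold change of -2.61 ± 0.16 and an adjusted p of 6.5e-05. Reads shared between near-identical copies make the split among these genes uncertain, since the treatment of reads with several matches is not given in the sources used here.

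The 250 bases before the start sites of these genes are printed because members of one cluster with similar upstream sequence differed in their change with age. They come from RefSeq on GRCm38.p6, 5′ to 3′ on the strand of the gene, at chr7:31302519-31302768 (+) for Scgb2b2, chr7:31362101-31362350 (-) for Scgb2b3, chr7:31705755-31706004 (-) for Scgb2b7, chr7:33366320-33366569 (-) for Scgb2b20 and chr19:9847308-9847557 (+) for Scgb2a2. Capitals mark TATAA, the TATA box core, and TGTTCT, the core hexamer of glucocorticoid and androgen receptor elements, each on either strand, and a match of TATAA can share bases with one of its reverse complement. The RefSeq start of Scgb2b2 lies inside the longer GENCODE model.
Scgb2b2: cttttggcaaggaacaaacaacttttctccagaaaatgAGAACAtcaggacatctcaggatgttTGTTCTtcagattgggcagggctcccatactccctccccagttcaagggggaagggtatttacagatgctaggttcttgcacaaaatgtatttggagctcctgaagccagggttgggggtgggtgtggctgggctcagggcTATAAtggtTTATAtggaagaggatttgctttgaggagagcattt
Scgb2b3: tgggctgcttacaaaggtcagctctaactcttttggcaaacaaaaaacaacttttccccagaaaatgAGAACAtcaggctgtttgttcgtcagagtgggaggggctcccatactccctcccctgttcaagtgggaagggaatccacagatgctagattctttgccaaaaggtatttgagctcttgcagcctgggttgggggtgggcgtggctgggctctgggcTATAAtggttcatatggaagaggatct
Scgb2b7: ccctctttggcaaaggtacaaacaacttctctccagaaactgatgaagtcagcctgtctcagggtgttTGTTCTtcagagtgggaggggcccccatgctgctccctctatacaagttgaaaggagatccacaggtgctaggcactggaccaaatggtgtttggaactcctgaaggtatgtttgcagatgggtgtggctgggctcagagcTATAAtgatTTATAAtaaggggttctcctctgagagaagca
Scgb2b20: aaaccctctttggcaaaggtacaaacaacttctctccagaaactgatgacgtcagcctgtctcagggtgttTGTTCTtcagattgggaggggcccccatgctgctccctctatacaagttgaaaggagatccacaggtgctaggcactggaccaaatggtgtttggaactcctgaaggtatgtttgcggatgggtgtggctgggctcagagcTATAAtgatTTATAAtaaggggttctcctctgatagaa
Scgb2a2: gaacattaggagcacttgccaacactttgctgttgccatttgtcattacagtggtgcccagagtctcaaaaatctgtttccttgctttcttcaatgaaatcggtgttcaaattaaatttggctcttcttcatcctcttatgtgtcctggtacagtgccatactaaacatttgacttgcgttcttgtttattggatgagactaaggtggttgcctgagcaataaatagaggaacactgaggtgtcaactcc

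Of the 27 secretoglobins 21 had such a window. Scgb2b7 and Scgb2b20 were identical at 96.0% of aligned positions, whereas Scgb2b2 shared 75.2% with Scgb2b7, 74.1% with Scgb2b20 and 71.5% with Scgb2b3, and 46.6% with Scgb2a2. TATAA was found 2 times for Scgb2b2, 1 time for Scgb2b3, 3 times for Scgb2b7 and 3 times for Scgb2b20, and TGTTCT 2, 1, 1 and 1 times, while the Scgb2a2 window held neither. Of the 32851 RefSeq windows of this length, 22.8% held TATAA and 16.1% held TGTTCT. These matches are a description of the letters and not of binding sites.

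The remaining secreted proteins were called in a few members, more of them by DESeq2 than by edgeR. Of 27 exocrine gland peptides and lipocalins, 20 were tested. By edgeR 2 were called higher (10.0% against 3.48% of all genes) and 2 lower (10.0% against 2.13%). DESeq2 called 6 higher and 2 lower, and 10 had an unadjusted p under 0.05 (7 higher and 3 lower). The median log2 fold change was 0.14, and the list took 9.28% to 10.6% of the counts at 2M and 10.7% to 12.0% at 6M. Esp16, an exocrine gland-secreted peptide, had 9797, 9699 and 10286 CPM at 2M and 12391, 12108 and 12341 CPM at 6M (log2 fold change 0.31 ± 0.05, adjusted p = 0.00495), and Esp31 had a log2 fold change of 0.45 (adjusted p = 0.0143). Esp23 fell from 22.4, 17.8 and 17.3 CPM at 2M to 11, 12 and 8.45 CPM at 6M (log2 fold change -0.86 ± 0.14, adjusted p = 0.0126) and Esp24 was a lower DEG (log2 fold change -1.06 ± 0.16, adjusted p = 0.0263). The most abundant member, the lipocalin Mup4, had 40619, 41283 and 42669.9 CPM at 2M and 40397, 41349 and 37238 CPM at 6M, so that its groups overlapped, with a log2 fold change of -0.06 ± 0.06 and an adjusted p of 0.597. Calls were lost for Esp16 without 2M replicates 1 and 2 in turn (adjusted p up to 0.0605) and in the fit of 18 mice (adjusted p = 0.169), Esp31 without 6M replicate 1 (adjusted p = 0.0537), Esp23 in the fit of 9 BALB/c mice and in the fit of 18 mice (adjusted p up to 0.0974), and Esp24 without each 6M mouse in turn (adjusted p up to 0.138). When 6M replicate 3 was left out, 8 members were called higher and 1 lower.

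Of 28 tear defence proteins and enzymes, 18 were tested and 2 were called by edgeR, both higher (11.1% against 3.48% of all genes). DESeq2 called 6 higher and 0 lower. Slpi, the secretory leukocyte protease inhibitor, was near 0 at 2M (0.0175, 0.18 and 0.0645 CPM) and was measured in every mouse of 6M at 2.11, 6.1 and 5.1 CPM, with a log2 fold change of 5.60 ± 0.70 and an adjusted p of 0.0116. Cst3, the protease inhibitor cystatin C, had 40.8, 41.5 and 37.1 CPM at 2M and 49, 53.6 and 49.6 CPM at 6M (log2 fold change 0.35 ± 0.06, adjusted p = 0.00706). The abundant Pip (prolactin-induced protein) was not called, at a mean of 12779 ± 368 CPM (SD) at 2M and 12937 ± 1015 CPM at 6M. The threshold was no longer passed by Slpi without 2M replicate 3 (adjusted p = 0.0725), and Cst3 in the fit of 9 BALB/c mice (adjusted p = 0.0612). With 6M replicate 3 left out, 4 members of the list were called higher and 3 lower.

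**Figure D2:**
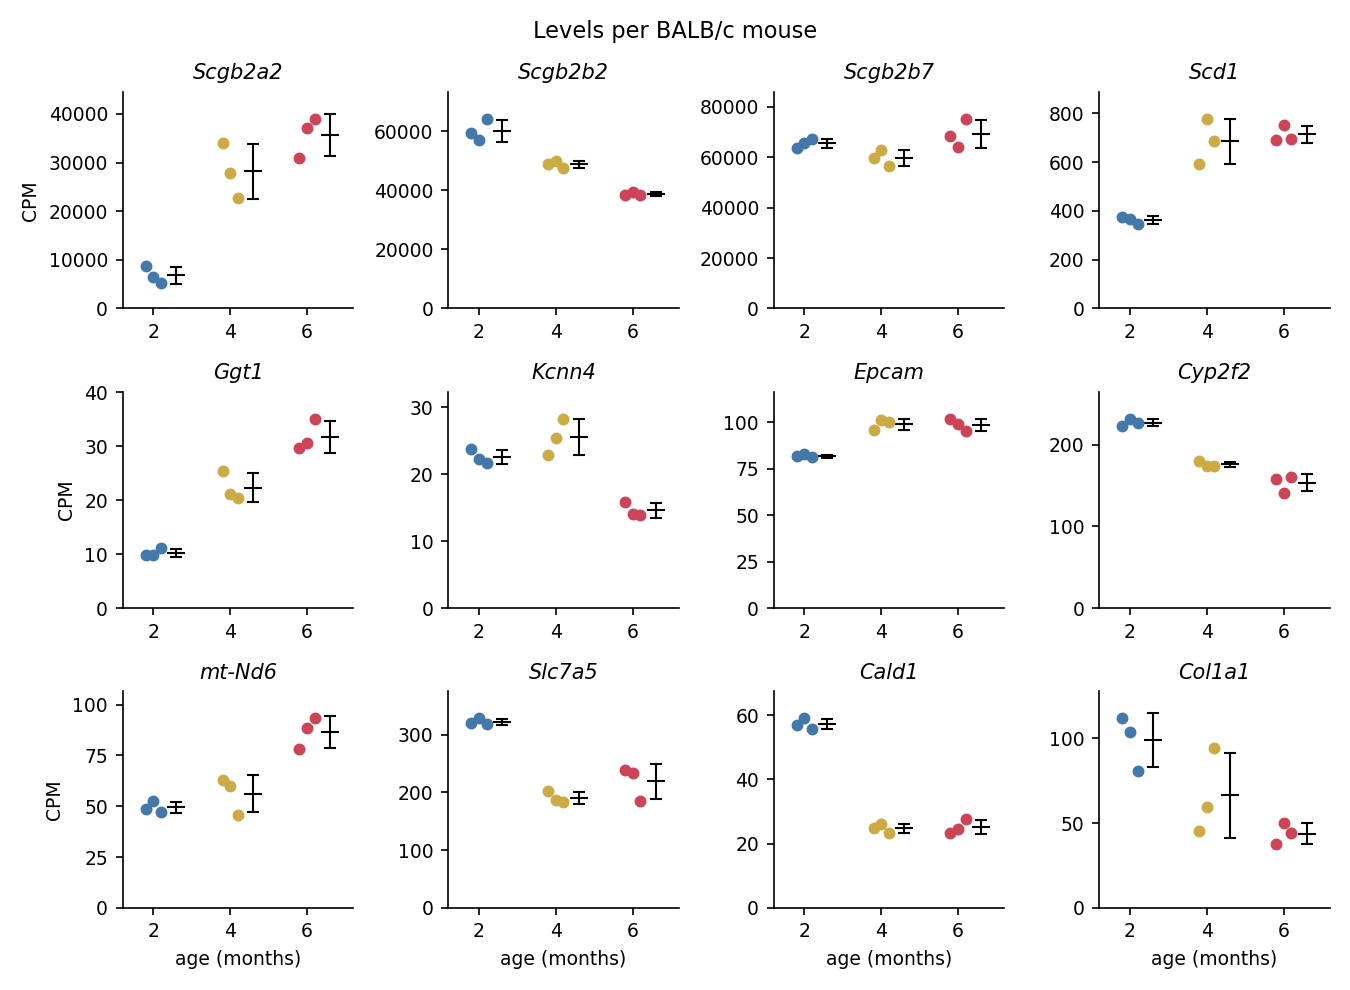
Each panel shows the CPM of 1 gene in the 9 BALB/c mice, with 1 point per mouse at 2, 4 and 6 months and the mean ± SD of the 3 mice beside the points. Scgb2a2, Scd1, Ggt1, Epcam and mt-Nd6 were higher in all 6M mice than in all 2M mice, Scgb2b2, Kcnn4, Cyp2f2, Slc7a5, Cald1 and Col1a1 were lower, and Scgb2b7 was not called.

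The machinery of fluid and protein secretion was called in single members. Among 27 tested channels and transporters of fluid secretion, Kcnn4, the calcium-activated potassium channel of secretory epithelia, had 23.8, 22.3 and 21.7 CPM at 2M and 15.9, 14 and 13.9 CPM at 6M. Every 6M mouse was below every 2M mouse (log2 fold change -0.62 ± 0.08, adjusted p = 8.6e-04). Clcn3, a chloride-proton exchanger of vesicles, was the only other member called, with 139 ± 1.51 CPM at 2M and 158 ± 2.04 CPM at 6M (log2 fold change 0.19 ± 0.04, adjusted p = 0.0266), and the most abundant member, the calcium release channel Itpr3, had a log2 fold change of -0.09 ± 0.05 and an adjusted p of 0.381. Among 23 secretagogue receptors and signalling genes, Vipr1, a receptor for vasoactive intestinal peptide, was called, with 68.9, 64.9 and 76.4 CPM at 2M and 57.5, 50 and 50.5 CPM at 6M (log2 fold change -0.41 ± 0.07, adjusted p = 0.00994), while Gnas, the stimulatory G protein subunit, had a log2 fold change of -0.10 (adjusted p = 0.335). Of 23 exocytosis genes, Rab26, a small GTPase of secretory granules, fell (7.81, 7.66 and 8.02 CPM at 2M and 5.75, 5.4 and 5.03 CPM at 6M, log2 fold change -0.53 ± 0.10, adjusted p = 0.0099) and the calcium sensor Syt7 rose (0.384, 0.508 and 0.613 and 1.6, 1.41 and 0.955 CPM, log2 fold change 1.41 ± 0.29, adjusted p = 0.0162). The granule GTPase Rab3d, the most abundant of them, was not called (log2 fold change -0.15 ± 0.05, adjusted p = 0.0965). The call did not hold for Clcn3 without each 2M mouse and 6M replicates 1 and 2 in turn (adjusted p up to 0.137) and with total counts as the only scaling, in the fit of 9 BALB/c mice, in the fit of 18 mice and with the replicate number as a block (adjusted p up to 0.195), Rab26 without 2M replicate 3 (adjusted p = 0.052), and Syt7 without 2M replicates 1 and 2 and 6M replicates 1 and 2 in turn (adjusted p up to 0.0751). In the fit that left out 6M replicate 3, 3 channels and transporters, 5 receptors and signalling genes and 5 exocytosis genes were called lower, and 2 exocytosis genes higher.

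Lists of epithelial identity and structure had medians close to 0. Of 28 tested epithelial transcription factors 1 was called, the forkhead factor Foxp2, with 1.05, 1.23 and 1.69 CPM at 2M and 4.91, 7.06 and 4.25 CPM at 6M (log2 fold change 2.03 ± 0.23, adjusted p = 9.3e-04), whereas Bhlha15 (Mist1), a regulator of secretory cell architecture, had a log2 fold change of -0.29 (adjusted p = 0.283). Of 29 tested junction and polarity genes only Epcam, the epithelial cell adhesion molecule, was called, at 81.6, 82.7 and 81.1 CPM at 2M and 102, 98.8 and 95.3 CPM at 6M (log2 fold change 0.28 ± 0.05, adjusted p = 0.00679). The groups of Epcam did not overlap although the change was 1.21-fold, and the desmosomal Dsp, the most abundant member, had a log2 fold change of 0.02 (adjusted p = 0.906). The tight junction scaffold gene Patj, which was not on this list, was a higher DEG and is given below. Of 13 tested ductal genes Slc34a2, a phosphate transporter, was called, with 0.874, 0.639 and 0.307 CPM at 2M and 1.62, 1.6 and 1.68 CPM at 6M (log2 fold change 1.44 ± 0.31, adjusted p = 0.0216). The most abundant gene on that list, Ltf (lactotransferrin), had 529, 539 and 536 CPM at 2M and 473, 503 and 558 CPM at 6M and was not called (adjusted p = 0.619). None of 16 myoepithelial and basal genes was called by edgeR or DESeq2 (2 had an unadjusted p under 0.05), and the median log2 fold change of that list was -0.06 against -0.02 for junction and polarity genes, 0.05 for ductal genes and 0.02 for transcription factors. The smooth muscle actin Acta2 had a log2 fold change of -0.15 (adjusted p = 0.683). The call of Slc34a2 was lost without 2M replicates 2 and 3 and 6M replicates 1 and 2 in turn (adjusted p up to 0.0838). Without 6M replicate 3, 5 junction and polarity genes were called higher, and 4 transcription factors, 3 ductal and 3 myoepithelial genes lower, 2 transcription factors were called higher, and the medians were -0.11 for myoepithelial and basal, -0.05 for junction and polarity and -0.12 for ductal genes and -0.01 for transcription factors.

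ER folding and unfolded protein response genes were measured at high levels (a sum of 12748 to 13070.2 CPM at 2M and 12180.0 to 13786 CPM at 6M), and of 45 tested 3 were called, all higher and by small amounts. The protein disulfide isomerases Pdia4 (100.5, 96.2 and 92.6 CPM at 2M and 112, 115 and 136 CPM at 6M) and Pdia6 (122, 119.9 and 127 and 136, 146 and 159.9 CPM) had log2 fold changes of 0.33 and 0.26 (adjusted p = 0.0261 and 0.0286), and Selenok, a selenoprotein of the ER membrane, had 0.22 (adjusted p = 0.0446). P4hb, the most abundant isomerase, was not called, with a log2 fold change of -0.12 ± 0.06 and an adjusted p of 0.288. The median of the list was -0.01, and 6.67% of its tested members were called higher, against 3.48% of all genes. Not all calls held, since FDR passed 0.05 for Pdia4 without each 2M mouse and 6M replicate 2 in turn (adjusted p up to 0.126) and in the fit of 18 mice (adjusted p = 0.115), Pdia6 without each 2M mouse and 6M replicate 2 in turn (adjusted p up to 0.134) and in the fit of 18 mice (adjusted p = 0.177), and Selenok without each 2M mouse and 6M replicates 1 and 2 in turn (adjusted p up to 0.156). When 6M replicate 3 was left out, 11 of these genes were called lower and 3 higher, and the median was -0.05.

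The largest changes among moderately expressed protein-coding genes were spread over several kinds of genes. Of the 6 largest increases at an average log2 CPM of at least 1, Scgb2a2, Slpi and the plasma cell gene Jchain are described with their families. Fgl2, a fibrinogen-like protein, had 4.18, 4.18 and 4.66 CPM at 2M and 19.7, 20 and 33.1 CPM at 6M (log2 fold change 2.48 ± 0.24, adjusted p = 0.00421), and Ankdd1a, which encodes an ankyrin repeat protein, had 4.93, 4.42 and 2.77 and 22, 25.2 and 19.5 CPM (log2 fold change 2.47 ± 0.21, adjusted p = 0.00145). Cdkl1, a cyclin-dependent kinase-like gene, was the third such gene, at 0.786, 0.966 and 0.694 CPM at 2M and 4.92, 5.64 and 2.97 CPM at 6M (log2 fold change 2.47 ± 0.25, adjusted p = 2.7e-04). In each of the 3, every 6M mouse was above every 2M mouse, as in all higher DEGs. Fgl2 lies within another gene's span, that of Ccdc146, and Ankdd1a overlaps Spg21, so that reads of the shared parts could belong to either gene. Of the 6 largest decreases, Smco4, which encodes a small single-pass membrane protein, had 18.2, 17.2 and 19.2 CPM at 2M and 8.21, 6.23 and 7.62 CPM at 6M (log2 fold change -1.30 ± 0.10, adjusted p = 3.7e-05). C130074G19Rik had 15.4, 16 and 13.8 and 7.41, 6.46 and 5.77 CPM (log2 fold change -1.19 ± 0.10, adjusted p = 6.8e-05), and St6galnac1, a sialyltransferase of mucin-type glycans, had 12.9, 20.9 and 21.6 and 9.04, 6.54 and 7.09 CPM (log2 fold change -1.27 ± 0.23, adjusted p = 0.0368). The call was lost for St6galnac1 without 2M replicates 2 and 3 and 6M replicates 2 and 3 in turn (adjusted p up to 0.147) and with no filter on low counts, in the fit of 18 mice and with the replicate number as a block (adjusted p up to 0.518). Cald1, Col1a1 and Igfbp3, which complete the 6, are given with or after the fibroblast and matrix genes.

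Among other DEGs with high levels, chosen after their values were seen, 2310057J18Rik had 3365, 3520.3 and 4852 CPM at 2M and 10553, 10079 and 11144 CPM at 6M (log2 fold change 1.44 ± 0.15, adjusted p = 0.0046), and Gm12886 had 710.4, 710.0 and 775 and 1752, 1998 and 1552 CPM (log2 fold change 1.28 ± 0.09, adjusted p = 5.9e-05). Both are protein-coding genes with no overlap of groups. Patj, which encodes a scaffold protein of tight junctions, had 95.6, 98.7 and 105 CPM at 2M and 212, 229 and 206 CPM at 6M (log2 fold change 1.12 ± 0.06, adjusted p = 1.0e-06), and overlaps 2 small annotated genes. Fcgbp, a mucus-associated IgG Fc binding protein, had 145, 184 and 170.0 and 426, 303 and 360.0 CPM (log2 fold change 1.13 ± 0.15, adjusted p = 0.0146). The leptin receptor Lepr (18.3, 20.5 and 14.4 and 44.7, 39.6 and 50.2 CPM, log2 fold change 1.35 ± 0.14, adjusted p = 0.00393) and the growth factor Tgfb2 (9.14, 7.66 and 7.58 and 17.7, 17.9 and 15.7 CPM, log2 fold change 1.08 ± 0.10, adjusted p = 7.1e-05) were higher DEGs as well. Olfm4, which marks progenitor cells of other epithelia, had 1.82, 1.15 and 2.02 CPM at 2M and 7.79, 7.02 and 8.47 CPM at 6M (log2 fold change 2.23 ± 0.18, adjusted p = 6.5e-05) and overlaps the long noncoding gene Gm6999, which rose with it (log2 fold change 2.57 ± 0.19, adjusted p = 2.5e-05). The call of Fcgbp was lost without 2M replicate 3 and 6M replicate 3 in turn (adjusted p up to 0.0644). Gm1553, one of the 8 genes with the most counts, fell from 43705, 44877 and 45779 CPM at 2M to 34443, 29609 and 32362 CPM at 6M (log2 fold change -0.47 ± 0.06, adjusted p = 0.0014), with no overlap.

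Lipid genes changed in a few members, led by the desaturase Scd1. Scd1 (chr19:44394455-44407879, reverse strand), which makes monounsaturated fatty acids, had 375, 367 and 345 CPM at 2M and 691, 754 and 697 CPM at 6M. The 3 mice within each age lay close together and the ages did not overlap (1.98-fold, log2 fold change 0.98 ± 0.05, adjusted p = 1.4e-06). Of 35 tested genes of fatty acid and triglyceride synthesis, 3 were called higher and 1 lower, and the median log2 fold change was 0.08. These were 8.57% and 2.86%, against 3.48% and 2.13% of all genes. The elongase Elovl5 had 6.24, 6.88 and 5.87 CPM at 2M and 8.12, 9.53 and 8.6 CPM at 6M (log2 fold change 0.47 ± 0.10, adjusted p = 0.0218), the phosphatidate phosphatase Lpin2 had a log2 fold change of 0.35 (adjusted p = 0.0371) and Dgat2, which completes triglycerides, had -0.24 (adjusted p = 0.0451). Of 37 tested genes of fatty acid beta oxidation, the dehydrogenases Acadm (53.6, 50.8 and 52.4 CPM at 2M and 66.7, 64.8 and 55.5 CPM at 6M) and Acadsb (119.9, 117 and 125 and 144, 137 and 134 CPM) were called higher with log2 fold changes of 0.26 and 0.20 (adjusted p = 0.0465 and 0.039). They were 5.41% of the tested members, against 3.48% of all genes. The most abundant member, the fatty acid transporter Slc27a2, had a mean of 2921 ± 182 CPM at 2M and 3187 ± 66.6 CPM at 6M and was not called (adjusted p = 0.21). None of 28 genes of cholesterol synthesis and transport was called by edgeR (5 had an unadjusted p under 0.05, and DESeq2 called 1 higher and 1 lower), and Abca1, the exporter of cholesterol and the most abundant of them, had a log2 fold change of 0.35 ± 0.09 and an adjusted p of 0.07. Phyh, which removes branched-chain fatty acids in peroxisomes and was chosen after its values were seen, was a DEG with 53.5, 52.7 and 65.6 CPM at 2M and 127, 122 and 118 CPM at 6M (log2 fold change 1.10 ± 0.08, adjusted p = 5.9e-05). Calls were lost for Elovl5 without 2M replicates 1 and 3 and 6M replicate 2 in turn (adjusted p up to 0.108), Lpin2 without each 2M mouse and 6M replicates 1 and 2 in turn (adjusted p up to 0.158), Dgat2 without each 2M mouse and 6M replicate 2 in turn (adjusted p up to 0.187), Acadm without each 2M mouse and 6M replicates 1 and 2 in turn (adjusted p up to 0.188) and with DESeq2 size factors, with upper-quartile scaling, with total counts as the only scaling and in the fit of 18 mice (adjusted p up to 0.133), and Acadsb without each 2M mouse and 6M replicates 1 and 2 in turn (adjusted p up to 0.177) and with total counts as the only scaling, in the fit of 18 mice and with the replicate number as a block (adjusted p up to 0.169). With 6M replicate 3 left out, 5 genes of fatty acid and triglyceride synthesis were called higher and 2 lower, 2 of beta oxidation higher and 2 lower, and 2 of cholesterol synthesis and transport higher.

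Transcripts of the mitochondrial genome rose, while few nuclear genes of the respiratory chain and the TCA cycle were called, all of them lower. Of 13 mitochondrially encoded protein genes 9 were tested, 6 were called higher (66.7% against 3.48% of all genes) and none lower, with a median log2 fold change of 0.59. mt-Nd6, a complex I subunit encoded on the light strand, had 48.5, 52.7 and 47.1 CPM at 2M and 77.9, 88.3 and 93.2 CPM at 6M (log2 fold change 0.81 ± 0.07, adjusted p = 7.8e-05). mt-Nd1 had 555, 559.6 and 505 and 647, 712 and 756 CPM (log2 fold change 0.39 ± 0.06, adjusted p = 0.00529), and the complex IV subunit mt-Co1, the most abundant, had 1745, 1775 and 1755 and 1999, 2180.0 and 2307 CPM (log2 fold change 0.30 ± 0.06, adjusted p = 0.0122). Reads of mt-Nd6 cannot be told from those of mt-Nd5 on the other strand where the genes overlap. The other 3 called were mt-Nd2 (0.62), mt-Nd5 (0.46) and mt-Cytb (0.47, all log2 fold changes). The summed level was 4979.8, 5177 and 4749 CPM at 2M and 5992, 6827 and 7497 CPM at 6M, with no overlap. The number called was 3 to 7 over the fits without 1 mouse, the lowest without 2M replicate 1, and the median was 0.38 without 6M replicate 3. The mitochondrial ribosomal RNA mt-Rnr2, against which ribosomal RNA depletion acts, had 8097, 7968 and 8131 CPM at 2M and 10262, 11898 and 11612 CPM at 6M (log2 fold change 0.49 ± 0.06, adjusted p = 0.00108), and mt-Rnr1 had a log2 fold change of 0.87 (adjusted p = 0.02), and whether depletion differed between the ages was not tested. Calls were lost for mt-Co1 without each 2M mouse in turn (adjusted p up to 0.0757), mt-Nd2 without each 2M mouse and 6M replicate 2 in turn (adjusted p up to 0.19), mt-Cytb without 2M replicates 1 and 3 and 6M replicate 2 in turn (adjusted p up to 0.104), and mt-Rnr1 without each 2M mouse and 6M replicates 2 and 3 in turn (adjusted p up to 0.115).

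Of 72 tested nuclear genes of the respiratory chain, 3 were called lower (4.17% against 2.13% of all genes) and none higher by edgeR or DESeq2. At an unadjusted p under 0.05, 14 were lower and 3 higher. The ATP synthase subunits Atp5g3 (52, 53.9 and 51.9 CPM at 2M and 45.3, 40 and 41.3 CPM at 6M) and Atp5e (24.8, 26.7 and 28 and 21.7, 19.7 and 22.2 CPM) had log2 fold changes of -0.31 and -0.32 (adjusted p = 0.0106 and 0.0235), and Uqcrc1 of complex III had -0.24 (adjusted p = 0.025). The abundant catalytic subunit Atp5b was not called (log2 fold change -0.11 ± 0.05, adjusted p = 0.199). Of 29 genes of the tricarboxylic acid (TCA) cycle and pyruvate oxidation, 3 were called lower (10.3% against 2.13% of all genes) and none higher. At an unadjusted p under 0.05 there were 10 and 0, and DESeq2 called 4 and 0. These were the pyruvate carrier Mpc2 (19.8, 19.9 and 20.2 CPM at 2M and 16.9, 14.2 and 16.2 CPM at 6M, log2 fold change -0.33 ± 0.08, adjusted p = 0.0279), pyruvate carboxylase Pcx (98.8, 99.5 and 100.4 and 85.3, 82 and 79.2 CPM, log2 fold change -0.27 ± 0.05, adjusted p = 0.0076) and the pyruvate dehydrogenase subunit Pdhb (-0.25, adjusted p = 0.0446), and all 3 handle pyruvate. Pdha1, the most abundant member, had a log2 fold change of -0.15 (adjusted p = 0.07). The list medians were -0.05 for the respiratory chain and -0.07 for the TCA cycle, against 0.01 for all genes. In the fit that left out 6M replicate 3, 11 respiratory chain genes (median -0.08) and 10 TCA cycle genes were called lower, and the fewest over the other fits without 1 mouse were 0 and 1, so these counts rest on single mice. The fit of 18 mice called 1 respiratory chain gene and 2 TCA cycle genes lower. The threshold was no longer passed by Atp5g3 without 2M replicate 2 (adjusted p = 0.0591), Atp5e without 2M replicates 2 and 3 and 6M replicate 2 in turn (adjusted p up to 0.126) and in the fit of 18 mice (adjusted p = 0.0587), Uqcrc1 without each 2M mouse and 6M replicate 2 in turn (adjusted p up to 0.105), Mpc2 without each 2M mouse and 6M replicate 2 in turn (adjusted p up to 0.118), and Pdhb without each 2M mouse and 6M replicates 1 and 2 in turn (adjusted p up to 0.161).

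Of 23 glycolysis genes 1 was called higher, the phosphofructokinase Pfkl (8.86, 9.04 and 9.23 CPM at 2M and 12.4, 10.7 and 12.8 CPM at 6M, log2 fold change 0.41 ± 0.09, adjusted p = 0.0219). Its muscle-type paralog Pfkm was called lower (log2 fold change -0.32 ± 0.08, adjusted p = 0.0284), as were the hexokinase Hk2 (98.3, 96.7 and 102 and 84.7, 81.2 and 88.5 CPM, log2 fold change -0.22 ± 0.05, adjusted p = 0.028) and Tpi1 (log2 fold change -0.25 ± 0.06, adjusted p = 0.037). The calls were 4.35% of the list higher and 13.0% lower, against 3.48% and 2.13% of all genes. Aldoa, the most abundant glycolysis gene, had a log2 fold change of -0.04 (adjusted p = 0.719). The call did not hold for Pfkl without each 2M mouse and 6M replicate 1 in turn (adjusted p up to 0.0927), Pfkm without each 2M mouse and 6M replicate 2 in turn (adjusted p up to 0.126), Hk2 without each 2M mouse and 6M replicates 1 and 2 in turn (adjusted p up to 0.13) and in the fit of 18 mice (adjusted p = 0.154), and Tpi1 without each 2M mouse and 6M replicate 2 in turn (adjusted p up to 0.143).

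Genes of amino acid metabolism were called in both directions. Of 46 tested genes of amino acid, serine and one-carbon metabolism 3 were called higher and 6 lower, and the median log2 fold change was -0.11. These were 6.52% and 13.0%, against 3.48% and 2.13% of all genes. Slc7a5, the transporter of large neutral amino acids, had 319.6, 328 and 318 CPM at 2M and 239, 234 and 184 CPM at 6M (log2 fold change -0.55 ± 0.09, adjusted p = 0.0109), and its heavy chain Slc3a2 had a log2 fold change of -0.24 (adjusted p = 0.014). Both chains of this transporter were thus lower at 6M. Phgdh, the first enzyme of serine synthesis, had 53.1, 54.7 and 55.6 CPM at 2M and 45.5, 41 and 43.8 CPM at 6M (log2 fold change -0.32 ± 0.05, adjusted p = 0.00641), and the arginine transporter Slc7a1 (-0.23), the transaminase Gpt2 (-0.24) and glutamine synthetase Glul (-0.31) were the other members called lower (adjusted p = 0.0468, 0.0138 and 0.00988). The polyamine enzyme Sat1 was higher, with 20.6, 19.5 and 24.2 CPM at 2M and 28.1, 31.3 and 29.7 CPM at 6M (log2 fold change 0.47 ± 0.08, adjusted p = 0.00774), as were argininosuccinate synthase Ass1 (log2 fold change 1.02 ± 0.22, adjusted p = 0.0311) and the histidine enzyme Hal (log2 fold change 1.40 ± 0.24, adjusted p = 0.00999). Not all calls held, since FDR passed 0.05 for Slc3a2 without 2M replicates 1 and 2 in turn (adjusted p up to 0.0838), Slc7a5 in the fit of 18 mice (adjusted p = 0.121), Phgdh in the fit of 18 mice (adjusted p = 0.0821), Slc7a1 without each 2M mouse and 6M replicates 1 and 2 in turn (adjusted p up to 0.182), Gpt2 without 2M replicates 2 and 3 in turn (adjusted p up to 0.0849), Sat1 without 2M replicate 1 (adjusted p = 0.0514) and in the fit of 18 mice (adjusted p = 0.0773), Ass1 without each 2M mouse and 6M replicates 1 and 2 in turn (adjusted p up to 0.136), and Hal without 2M replicate 3 (adjusted p = 0.0556). Without 6M replicate 3, 14 members were called lower and 4 higher, and none was called lower and 2 higher in the fit of 18 mice.

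Of the metabolic genes, Ggt1 had the largest called change at a mean level above 10 CPM. Ggt1 (chr10:75561604-75586200, forward strand), gamma-glutamyltransferase, the surface enzyme that begins the breakdown of glutathione, had 9.79, 9.79 and 11.1 CPM at 2M and 29.6, 30.5 and 35.1 CPM at 6M. Each 6M mouse was well above each 2M mouse (3.11-fold, log2 fold change 1.64 ± 0.08, adjusted p = 1.0e-06). Of 37 tested genes of glutathione and detoxification 2 were called higher and 1 lower, and the glutathione transferases Gstk1 (7.79, 8.38 and 9.07 CPM at 2M and 11.8, 11.3 and 10.6 CPM at 6M, log2 fold change 0.42 ± 0.09, adjusted p = 0.02) and Gsta3 (log2 fold change -0.29 ± 0.07, adjusted p = 0.0279) were the other members. The calls were 5.41% of the list higher and 2.70% lower, against 3.48% and 2.13% of all genes. Prdx1, a peroxiredoxin and the most abundant member, had a log2 fold change of 0.05 ± 0.05 and an adjusted p of 0.63. Of 27 tested genes of retinoid metabolism and cytochrome P450, 3 were called, all lower (11.1% against 2.13% of all genes). Cyp2f2, an enzyme of xenobiotic metabolism, had 223, 232 and 226 CPM at 2M and 158, 141 and 160.2 CPM at 6M (log2 fold change -0.56 ± 0.06, adjusted p = 1.4e-04). Adh1, an alcohol and retinol dehydrogenase, had 38.2, 39 and 43.5 and 28.4, 29.3 and 29.7 CPM (log2 fold change -0.46 ± 0.06, adjusted p = 0.00147), and Cyp2b19 fell from a mean of 28.6 CPM to 14.2 CPM (adjusted p = 0.0191). The summed level of the list was 1006, 1088 and 1067 CPM at 2M and 866, 833 and 831 CPM at 6M, with no overlap, although its most abundant member, Cyp2b10, was not called (255, 268 and 264 and 259, 241 and 224 CPM, adjusted p = 0.266). Of 21 hormone receptors and response genes only Igf1, insulin-like growth factor 1, was called, with 10.1, 10.3 and 11 CPM at 2M and 12.7, 13.9 and 15.2 CPM at 6M (log2 fold change 0.41 ± 0.09, adjusted p = 0.0196). Calls were lost for Gstk1 without 2M replicates 1 and 2 and 6M replicates 1 and 2 in turn (adjusted p up to 0.0943) and in the fit of 18 mice (adjusted p = 0.0768), Gsta3 without each 2M mouse and 6M replicate 2 in turn (adjusted p up to 0.13), Adh1 in the fit of 9 BALB/c mice and in the fit of 18 mice (adjusted p up to 0.387), Cyp2b19 without 2M replicates 1 and 2 and 6M replicate 3 in turn (adjusted p up to 0.093), and Igf1 without each 2M mouse and 6M replicate 2 in turn (adjusted p up to 0.0887) and in the fit of 18 mice (adjusted p = 0.154). With 6M replicate 3 left out, 3 glutathione and detoxification genes were called higher and 3 lower, 1 gene of retinoid metabolism and cytochrome P450 higher and 4 lower, and 2 hormone receptors and response genes higher.

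**Figure D3:**
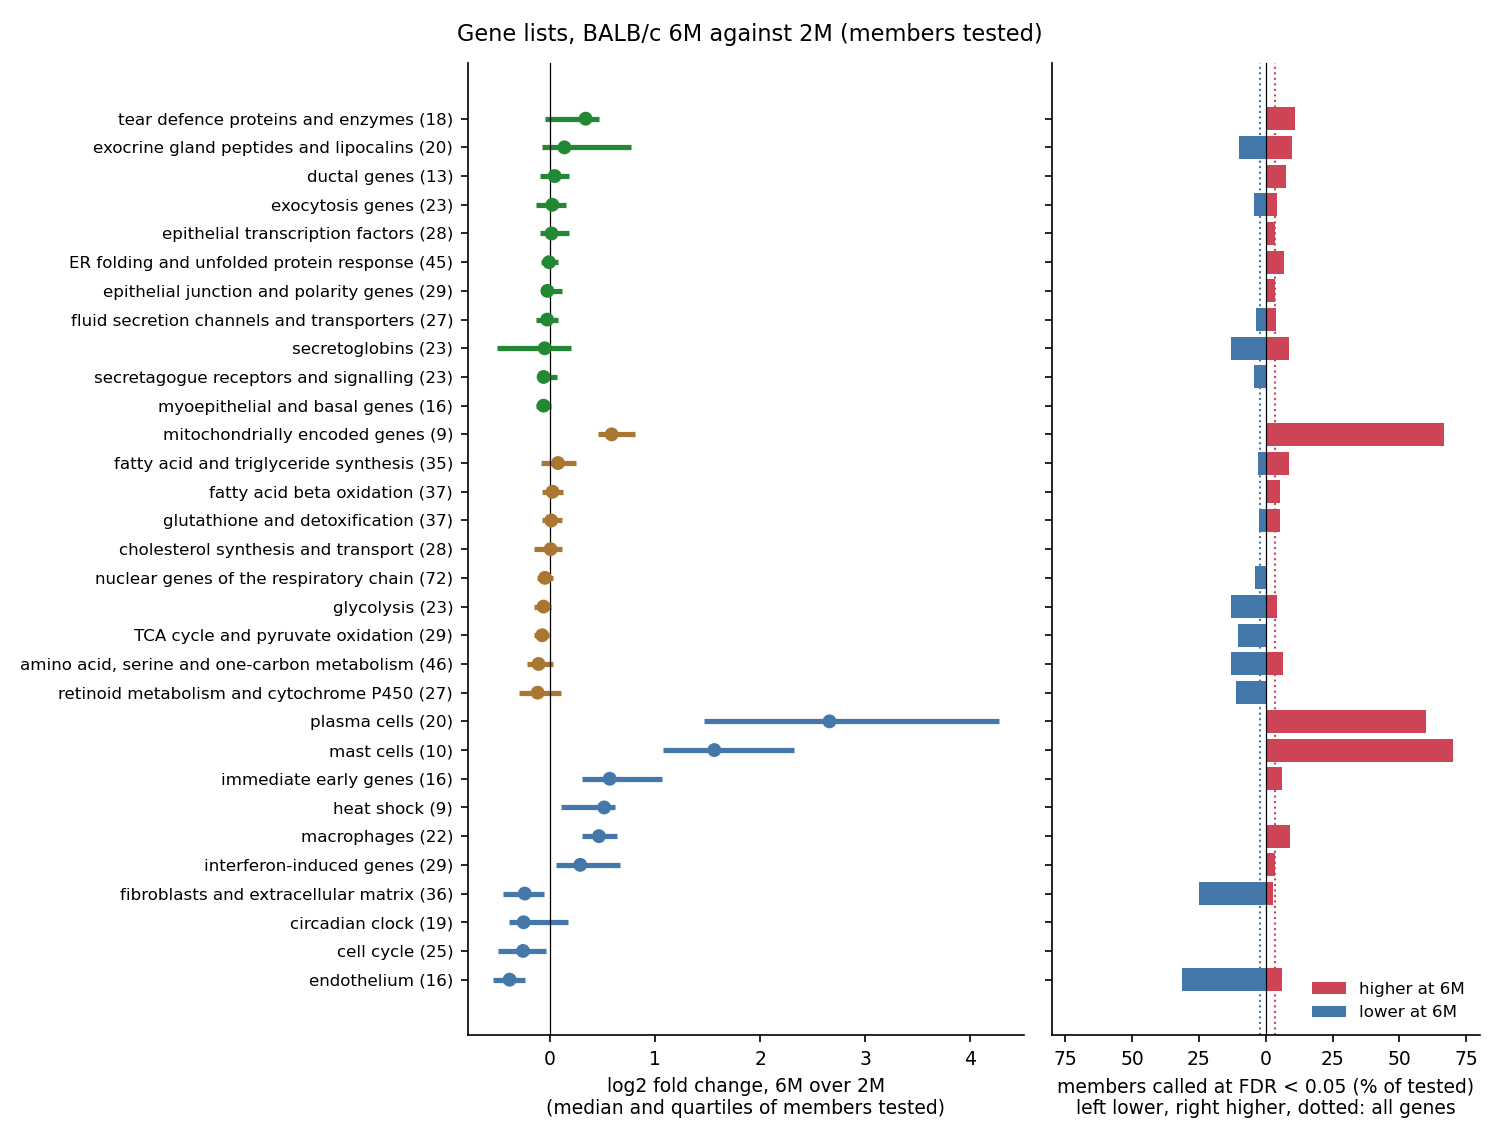
For each gene list the left side gives the median and quartiles of the log2 fold change of its tested members, 6M over 2M, and the right side the percentage of tested members called higher or lower, with dotted lines at the values of all genes (3.48% and 2.13%). Epithelial lists (green) and metabolic lists (brown) have medians near 0 except the mitochondrially encoded genes at 0.59 (0.38 without 6M replicate 3), while plasma cells lie at 2.66 and fibroblasts and endothelium (blue) at -0.24 and -0.38.

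Most called genes of fibroblasts, matrix and endothelium were lower at 6M. Of 36 tested genes of fibroblasts and extracellular matrix 9 were called lower (25.0% against 2.13% of all genes) and 1 higher, with a median log2 fold change of -0.24. Col1a1, the main chain of type I collagen, had 112, 104 and 81 CPM at 2M and 37.6, 49.9 and 43.9 CPM at 6M (log2 fold change -1.17 ± 0.16, adjusted p = 0.0164), and Col1a2 had a log2 fold change of -0.67 (adjusted p = 0.037). The basement membrane chains Col4a2 (37.4, 34.9 and 34.5 CPM at 2M and 19, 21.6 and 22.9 CPM at 6M, log2 fold change -0.75 ± 0.07, adjusted p = 1.4e-04) and Col4a1 (-0.72, adjusted p = 0.00769) were lower as well, and so were Sparc (-0.81), Col15a1 (-0.63), Col12a1 (-0.62), Col6a3 (-0.35) and the pericyte receptor Pdgfrb (-0.47), with adjusted p from 0.00445 to 0.0453. The intermediate filament gene Vim was the member called higher (log2 fold change 0.54 ± 0.10, adjusted p = 0.012). The number called lower was 4 to 8 over the fits without 1 mouse, the lowest without 2M replicate 1. Of 16 endothelial genes 5 were called lower, namely the vascular endothelial growth factor receptors Flt1 (18.3, 15.9 and 19.7 CPM at 2M and 11.6, 10.4 and 12 CPM at 6M, log2 fold change -0.66 ± 0.09, adjusted p = 0.00219) and Kdr (-0.83) with Tie1 (-0.62), Plvap (-0.56) and Cdh5 (-0.53), while von Willebrand factor Vwf was higher (log2 fold change 0.40 ± 0.06, adjusted p = 0.00245). Thus 31.25% of the tested endothelial genes were called lower and 6.25% higher, against 2.13% and 3.48% of all genes. The summed endothelial level was 119, 113 and 125 CPM at 2M and 97.3, 96.6 and 94.9 CPM at 6M, with no overlap. In a whole gland, fewer cells of a type and less RNA per cell cannot be told apart. The threshold was no longer passed by Col1a1 without 2M replicate 2 and 6M replicate 3 in turn (adjusted p up to 0.0726) and in the fit of 9 BALB/c mice (adjusted p = 0.0776), Col1a2 without 2M replicates 1 and 2 and 6M replicate 3 in turn (adjusted p up to 0.13), Sparc without 2M replicates 1 and 2 and 6M replicates 2 and 3 in turn (adjusted p up to 0.125), Col12a1 without 2M replicates 1 and 3 and 6M replicates 1 and 2 in turn (adjusted p up to 0.0831), Col6a3 without each 2M mouse and 6M replicates 1 and 2 in turn (adjusted p up to 0.154), Pdgfrb without 2M replicates 1 and 3 and 6M replicate 2 in turn (adjusted p up to 0.122), Vim without 2M replicates 1 and 3 in turn (adjusted p up to 0.0648), Cdh5 without each 2M mouse and 6M replicate 1 in turn (adjusted p up to 0.118), and Tie1 without each 2M mouse and 6M replicate 2 in turn (adjusted p up to 0.162).

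Outside these lists, Cald1, an actin-binding protein of smooth muscle and fibroblasts, had 56.9, 58.9 and 55.7 CPM at 2M and 23.4, 24.5 and 27.6 CPM at 6M (log2 fold change -1.18 ± 0.07, adjusted p = 1.5e-06), and Igfbp3, a carrier of insulin-like growth factors, had 4.79, 3.41 and 6.07 and 2.08, 2.26 and 2.14 CPM (log2 fold change -1.14 ± 0.20, adjusted p = 0.00745). Both were separated between the ages in all mice, as were all DEGs. Which cells of the gland expressed them was not tested. Cell cycle genes were not called by edgeR or DESeq2 (25 tested, 2 with an unadjusted p under 0.05, median log2 fold change -0.26). Their sum was 102, 99.7 and 88.5 CPM at 2M and 74.5, 77.3 and 111 CPM at 6M, so that 6M replicate 3 lay above and the other 6M mice below all 2M mice. When 6M replicate 3 was left out, 12 of the cell cycle genes were called lower and their median was -1.24.

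Immunoglobulin transcripts rose by far more than any epithelial list, from a very low base. They took 0.00610% to 0.0114% of the counts at 2M and 0.101% to 0.178% at 6M. Of 429 annotated immunoglobulin genes 145 were tested and 91 were called, all higher (62.8% against 3.48% of all genes). These were 72 variable genes, 9 joining genes, 6 constant genes and 4 variable pseudogenes. The median log2 fold change of the 145 was 4.58, or 4.13 when the 35 genes with at most 3 counts in every 2M mouse are set at their lower bound. Those 35 genes passed the filter only through the 6M mice, which fixed their direction, and 32 of the 91 called genes were among them. Igha, the constant region of IgA, had 18.4, 28.8 and 43.7 CPM at 2M and 471, 794 and 531 CPM at 6M (log2 fold change 4.31 ± 0.47, adjusted p = 0.0203), and the kappa constant region Igkc had 8.95, 15.9 and 21.2 and 251, 474 and 315 CPM (log2 fold change 4.50 ± 0.49, adjusted p = 0.0203). The groups were far apart, but the 6M mice also differed among themselves. Iglc1, a lambda constant region, had 0.402, 0.442 and 0.645 CPM at 2M and 4.9, 3.65 and 3.8 CPM at 6M (log2 fold change 3.05 ± 0.22, adjusted p = 1.7e-05). Reads of variable genes and of the IgG subclasses can be shared between copies, and the reference holds 1 strain's alleles, so the split among them is uncertain.

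Of 20 tested plasma cell genes, 12 were called higher (60% against 3.48% of all genes) and none lower. The list includes the immunoglobulin constant regions and had a median log2 fold change of 2.66. Jchain, which joins IgA dimers, had 4.14, 9.04 and 11.3 CPM at 2M and 134, 251 and 142 CPM at 6M (log2 fold change 4.43 ± 0.54, adjusted p = 0.0264). The cofactor Pou2af1 (4.26), the receptor Tnfrsf13b (2.70), the transcription factor Irf4 (2.13) and the ER chaperone Mzb1 (1.81) were members called higher that are not immunoglobulin genes, while Sdc1 (adjusted p = 0.472) and Xbp1 (adjusted p = 0.808), which epithelial cells also express, were not called. Between 7 and 16 members were called over the fits without 1 mouse, the fewest without 6M replicate 2 and the most without 6M replicate 3, where 1 was called lower. The call did not hold for Jchain without each 2M mouse and 6M replicates 1 and 2 in turn (adjusted p up to 0.124) and with the replicate number as a block (adjusted p = 0.0724), Igha without 2M replicates 1 and 2 and 6M replicates 1 and 2 in turn (adjusted p up to 0.107), and Igkc without each 2M mouse and 6M replicates 1 and 2 in turn (adjusted p up to 0.106).

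The B cell markers Ms4a1 and Pax5 were near 0 in all 6 mice, with at most 3 counts for each in any mouse, and neither was tested. Only 5 of 16 B cell genes were tested and 2 were called higher. Cd79a, a part of the B cell receptor that plasma cells can also express, had at most 3 counts in every 2M mouse and 0.429, 0.656 and 0.467 CPM at 6M, at least 10.3-fold higher (adjusted p = 0.00156). Of 25 T cell genes 4 were tested and Cd4 was called (0.262, 0.0655 and 0.0645 CPM at 2M and 0.507, 0.463 and 0.573 CPM at 6M, log2 fold change 1.98 ± 0.52, adjusted p = 0.0482). Of 22 macrophage genes 2 were called higher (9.09% against 3.48% of all genes), with a list median of 0.47. They were Ms4a7 (0.734, 1.28 and 0.645 and 1.86, 2.32 and 2.95 CPM, log2 fold change 1.41 ± 0.28, adjusted p = 0.0145) and the protease Ctss (0.57, adjusted p = 0.018). The integrin Itgax (log2 fold change 1.26 ± 0.31, adjusted p = 0.0403) was the 1 of 11 dendritic cell and MHC class II genes called, and Irf7 (log2 fold change 0.92 ± 0.18, adjusted p = 0.0187) the 1 of 29 interferon-induced genes. Of 18 mast cell genes, a list added after the values were seen, 10 were tested and 7 were called higher (70.0% against 3.48% of all genes). They were led by the chymase Mcpt4 (0.874, 0.917 and 0.5 CPM at 2M and 2.39, 3.92 and 3.91 CPM at 6M, log2 fold change 2.15 ± 0.27, adjusted p = 0.00133). Cpa3 (1.60), Cma1 (1.53) and Tpsb2 (1.31), which encode other mast cell proteases, were called as well, whereas Kit (adjusted p = 0.109) was not and Fcer1a had at most 1 count in any mouse. Between 2 and 7 mast cell genes were called over the fits without 1 mouse, the fewest without 2M replicate 1. Not all calls held, since FDR passed 0.05 for Cd79a in the fit of 18 mice (adjusted p = 0.109), Cd4 without 2M replicates 2 and 3 and 6M replicates 1 and 2 in turn (adjusted p up to 0.184) and with upper-quartile scaling, with total counts as the only scaling, in the fit of 9 BALB/c mice, in the fit of 18 mice, with the replicate number as a block and with the deepest library thinned (adjusted p up to 0.314), Ms4a7 without 2M replicates 1 and 3 and 6M replicate 2 in turn (adjusted p up to 0.0744), Ctss without 2M replicates 1 and 3 and 6M replicates 1 and 2 in turn (adjusted p up to 0.0846), Itgax without 2M replicates 1 and 3 and 6M replicates 1 and 2 in turn (adjusted p up to 0.166) and with total counts as the only scaling, in the fit of 9 BALB/c mice and in the fit of 18 mice (adjusted p up to 0.154), Irf7 without 2M replicates 1 and 3 and 6M replicates 1 and 2 in turn (adjusted p up to 0.0757) and in the fit of 18 mice (adjusted p = 0.131), Cpa3 without 2M replicates 1 and 3 in turn (adjusted p up to 0.0594), Cma1 without each 2M mouse in turn (adjusted p up to 0.118), and Tpsb2 without each 2M mouse and 6M replicate 2 in turn (adjusted p up to 0.09). The number of macrophage genes called ran from 0 without 2M replicate 1 to 5 without 6M replicate 3, and without the latter 2 interferon-induced genes were called higher and 1 mast cell gene lower.

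**Figure D4:**
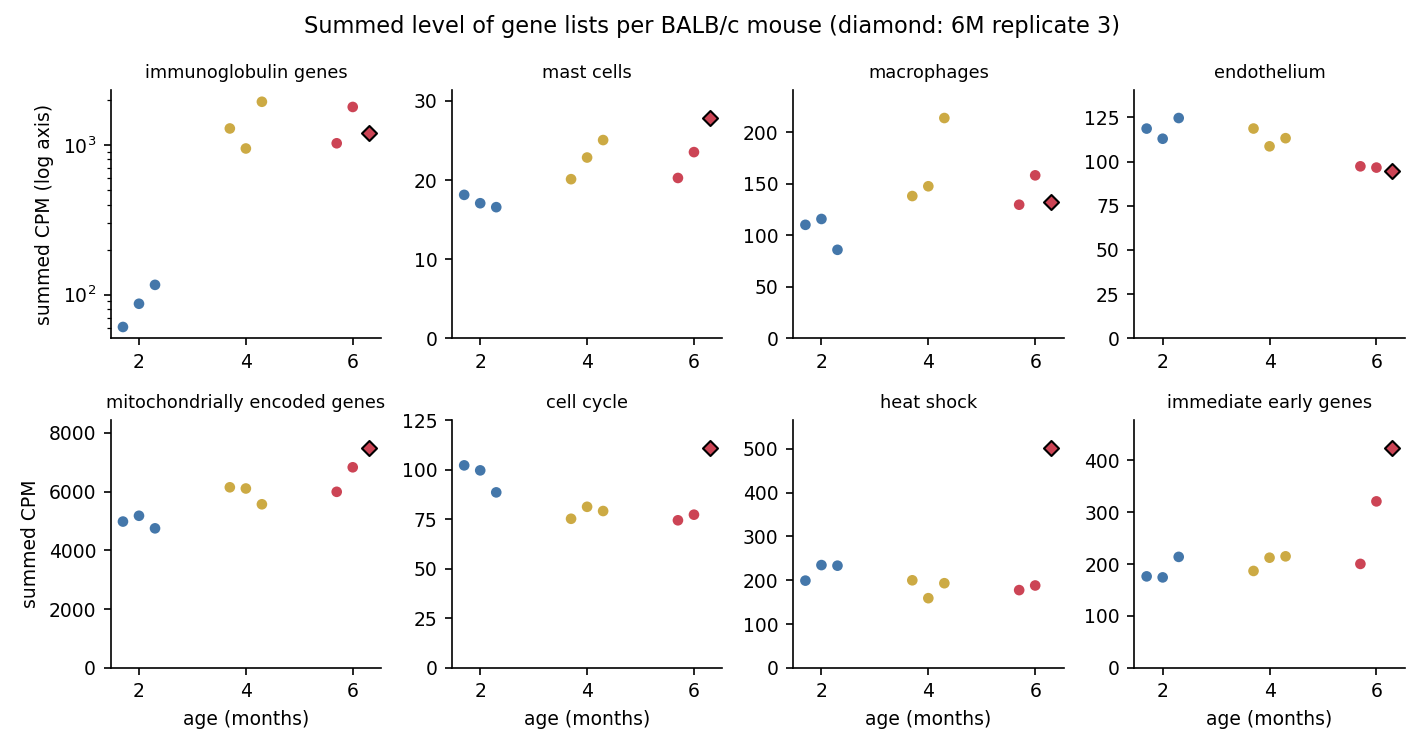
Summed CPM of 8 gene lists in each of the 9 BALB/c mice at 2, 4 and 6 months, with a diamond for 6M replicate 3 and a log axis for immunoglobulin genes. Immunoglobulin and mitochondrially encoded transcripts were higher in all 6M than in all 2M mice and endothelial genes lower, and 6M replicate 3 is the highest mouse for heat shock genes (503 CPM).

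The remaining lists held few called genes. None was called by edgeR or DESeq2 of 9 tested adipocyte, 2 skeletal muscle, 7 nerve, 5 erythroid and 9 heat shock genes (unadjusted p under 0.05 in 1 adipocyte gene and in 0 of the others). None of 19 circadian clock genes was called by edgeR, 5 had an unadjusted p under 0.05 and DESeq2 called 3 lower. Prol1, on the list of salivary gland markers, was called higher (3.98, 6.01 and 5.71 CPM at 2M and 10.2, 8.88 and 8.7 CPM at 6M, log2 fold change 0.83 ± 0.14, adjusted p = 0.00885), and of 7 tested genes of lipid-secreting glands, Cidea, a lipid droplet protein, was higher (1.54, 1.49 and 2.08 and 2.7, 3.2 and 3.35 CPM, log2 fold change 0.85 ± 0.18, adjusted p = 0.0197) while Awat2 and Mc5r were lower (-1.09 and -0.28). Of 16 immediate early genes Klf6 was called (log2 fold change 0.28 ± 0.06, adjusted p = 0.0265), and without 6M replicate 1 there were 8. Of 36 tested Wnt pathway genes, a list added after the values were seen, the receptors Fzd10 (1.19, 0.917 and 1.08 CPM at 2M and 3.64, 4.26 and 4.54 CPM at 6M, log2 fold change 1.97 ± 0.17, adjusted p = 6.6e-05) and Fzd9 (log2 fold change 1.93 ± 0.23, adjusted p = 8.1e-04) were higher and the coreceptor Lrp5 was lower (log2 fold change -0.25 ± 0.05, adjusted p = 0.0172). Of 11 structural and ribosomal RNAs 4 were called higher and 1 lower. Calls were lost for Prol1 in the fit of 9 BALB/c mice and in the fit of 18 mice (adjusted p up to 0.557), Cidea without 2M replicates 1 and 2 and 6M replicate 2 in turn (adjusted p up to 0.0896) and in the fit of 18 mice (adjusted p = 0.206), Awat2 without each 2M mouse and 6M replicates 1 and 2 in turn (adjusted p up to 0.155), Mc5r without each 2M mouse and 6M replicate 1 in turn (adjusted p up to 0.0983), Klf6 without each 2M mouse and 6M replicate 1 in turn (adjusted p up to 0.115) and in the fit of 18 mice (adjusted p = 0.0932), and Lrp5 without each 2M mouse in turn (adjusted p up to 0.0883). With 6M replicate 3 left out, edgeR called 3 clock genes higher and 2 lower, 2 heat shock genes lower, 1 skeletal muscle gene higher, 3 Wnt pathway genes lower, and 3 structural and ribosomal RNAs higher and 2 lower.

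The 4M mice show where along the span levels had moved. Against 2M, 345 genes (2.07%) were DEGs with higher and 50 (0.3%) with lower expression at 4M, and 11.1% of 16639 genes were called in either direction. Against 4M, 3 genes each way (0.018% each) were DEGs at 6M and 0.307% were called. The comparisons share mice, so their values are only set side by side. Scgb2a2 had 33989, 27799.9 and 22776 CPM at 4M, and its log2 fold change was 2.05, adjusted p = 0.022 for 4M against 2M, and 0.34, adjusted p = 0.316 for 6M against 4M. Scd1 had 593, 777 and 689 CPM (against 2M 0.92, adjusted p = 0.00101, and 6M against 4M 0.06, adjusted p = 0.797). Both genes were thus at 4M within or near the levels of 6M. Ggt1 stood between the other ages at 25.4, 21.1 and 20.4 CPM (against 2M 1.13, adjusted p = 1.7e-05, and 6M against 4M 0.51, adjusted p = 0.0597). Igha had 587, 438 and 884 CPM at 4M, a range that holds all 3 of the 6M mice (6M against 4M -0.09, adjusted p = 0.935). Cald1 had 24.9, 26.1 and 23.4 CPM (6M against 4M 0.02, adjusted p = 0.916). Kcnn4 moved otherwise, with 22.9, 25.4 and 28.3 CPM at 4M, no call against 2M (0.18, adjusted p = 0.149) and a log2 fold change from 4M to 6M of -0.80, adjusted p = 0.00535. Slc7a5 had 203, 186 and 183 CPM at 4M (against 2M -0.75, adjusted p = 2.5e-06, and 6M against 4M 0.20, adjusted p = 0.344). Scgb2b2 had 48826, 49983 and 47603 CPM (against 2M -0.30, adjusted p = 0.00425, and 6M against 4M -0.33, adjusted p = 0.0745), and mt-Nd6 had 63, 60.1 and 45.7 CPM (against 2M 0.19, adjusted p = 0.418, and 6M against 4M 0.62, adjusted p = 0.0995).

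Whether these changes were particular to BALB/c was tested against the NOD.H-2b mice of the same ages. In NOD.H-2b 20.7% of 18008 genes tested were called higher from 2M to 6M and 19.4% lower. Of the 260 higher DEGs of BALB/c 236 were tested in NOD.H-2b, and 147 were called higher and 4 lower there. Of the 91 immunoglobulin DEGs 83 were tested and 57 were called higher. Of the 19 lower DEGs 8 were called lower and 2 higher in NOD.H-2b. A difference between the strains in the change itself, strain by age, was called in 7.04% of 19117 genes with a higher and in 9.09% with a lower change in NOD.H-2b, and among the 260 higher DEGs 59 had a lower and 2 a higher change in NOD.H-2b, while among the 19 lower DEGs 7 had a higher change there. Since the DEGs were chosen on the BALB/c mice that also enter this test, these counts are a description.

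Several lists with few called genes in BALB/c held more genes called for the difference, and those given here were chosen after their counts were seen. Strain by age gave a lower change in NOD.H-2b for 23 of 30 junction and polarity genes, 22 of 45 ER genes, 13 of 28 epithelial transcription factors and 12 of 38 beta oxidation genes, against 9.09% of all genes. A higher change in NOD.H-2b was called in 0, 0, 1 and 0 of them, against 7.04%. Of the TCA cycle and respiratory chain lists 5 of 29 and 6 of 72 genes had a lower change in NOD.H-2b. Of B and T cell genes, 5 and 4 passed the filter in BALB/c, whereas within NOD.H-2b 16 of 16 and 21 of 25 were called higher, and the part of such cells in the differences was not tested.

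Ggt1 was among the 3 protein-coding genes with the smallest p for a lower change in NOD.H-2b. Its log2 fold change in the fit of 18 mice was 1.65 for BALB/c and -0.34 for NOD.H-2b (difference -1.98 ± 0.20, adjusted p = 9.7e-05), and in NOD.H-2b it had 4.51 to 4.58 CPM at 2M and 3.23 to 4.33 CPM at 6M. Scd1 rose by 0.99 in BALB/c mice and had 0.41 in NOD.H-2b mice (difference -0.58 ± 0.13, adjusted p = 0.00717). Kcnn4, lower in BALB/c (-0.62), had 0.46 in NOD.H-2b (difference 1.08 ± 0.17, adjusted p = 0.00122). Scgb2b2 had -0.63 in BALB/c mice and -0.07 in NOD.H-2b mice (difference 0.56 ± 0.12, adjusted p = 0.00674). Epcam had 0.28 and -0.29 (difference -0.57 ± 0.09, adjusted p = 0.00131), Syt7 had 1.41 and -0.47 (difference -1.88 ± 0.42, adjusted p = 0.00726), and Cyp2f2 had -0.56 and -1.20 (difference -0.64 ± 0.11, adjusted p = 0.00141). For Scgb2a2 the difference was not called (BALB/c 2.40, NOD.H-2b 3.04, difference 0.64 ± 0.55, adjusted p = 0.462), nor was it for Col1a1 (-1.17 and -1.69, difference -0.52 ± 0.31, adjusted p = 0.276), Mpc2 (-0.33 and -0.41, difference -0.09 ± 0.10, adjusted p = 0.62) or Slc7a5 (-0.55 and -0.81, difference -0.26 ± 0.25, adjusted p = 0.509). A p above the threshold does not show that the strains changed alike. The genes of this paragraph were all called in the BALB/c mice that also enter the test, so their differences are a description. Cald1 had -1.17 in BALB/c mice and -1.91 in NOD.H-2b mice (difference -0.73 ± 0.32, adjusted p = 0.138).

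**Figure D5:**
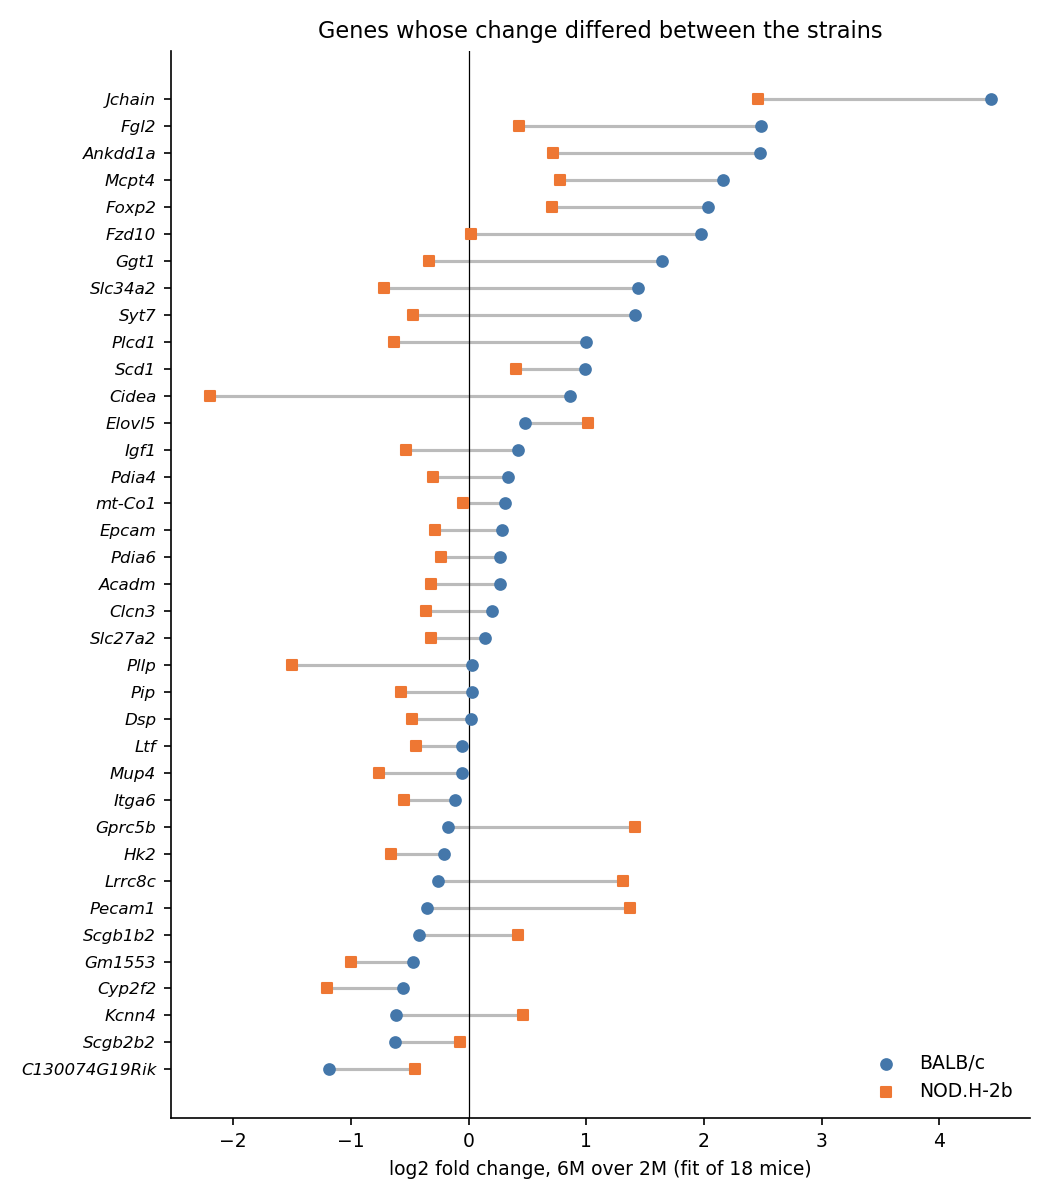
Log2 fold change from 2M to 6M in the fit of 18 mice for the 37 of 90 named genes whose change differed between the strains at FDR under 0.05, with a blue circle for BALB/c and an orange square for NOD.H-2b joined by a line. Ggt1 and Scd1 lie higher in BALB/c, while Kcnn4 and Scgb2b2 lie lower in BALB/c than in NOD.H-2b.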

How the data were processed

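The deposited values used here are raw counts for each Ensembl gene. The authors depleted ribosomal RNA, made libraries with a kit that does not mark the strand and sequenced them in paired ends. Trimming was done with cutadapt, alignment with STAR (genome GRCm38) and counting with HTSeq. These tools are named in the submitters' processing notes without versions. How HTSeq was set for strand and for reads matching several genes is not given in the sources used here. A second deposited table of log2 values was not used.

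Gene names and coordinates came from GENCODE M21 on GRCm38, which held 54165 of 54232 gene IDs. Counts were analyzed in R 4.3.3 with edgeR 4.0.16 (filterByExpr, TMM, robust quasi-likelihood test, Benjamini-Hochberg over all genes tested) on the 6 mice of each comparison, with no covariate. A fit of all 18 mice in 6 groups tested strain by age. Each SE was taken as the absolute log2 fold change over the square root of F. Pairs of BALB/c replicates differed by a chi-square per gene of 17.7 to 72.0, more than counting noise, so each was kept as a separate sample. Folds of genes with at most 3 counts in every 2M mouse are given as bounds.

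The 41 gene lists were written by hand, 1047 names in all, of which 4 were not matched, and lists for mast cells and the Wnt pathway were added after the values were seen. Named genes are the 6 protein-coding DEGs each way with the largest log2 fold change at an average log2 CPM of at least 1, the 2 called members with the smallest p and the most abundant member of each epithelial or metabolic list, the called member with the smallest p of each other list, the 8 protein-coding genes with the most counts, and the 3 protein-coding genes in each direction whose p for strain by age was smallest. Other called members of the lists are given with fewer values. The comparison, lists and rules were chosen with earlier results of these data known. Alternatives were DESeq2 1.42.0 (size factors or Wald test), upper-quartile and total-count scaling, no filter or at least 10 counts in every mouse, edgeR glmTreat against a 2-fold change, fits of 9 or 18 mice, thinning of the deepest library to 57094775 counts, the replicate number as a block, and leaving out each mouse. The counting of DEGs without immunoglobulin genes was added after the values were seen. The steps were tested on simulated data, with 200 genes changed. For 6M against 2M, 9.10% of the genes called at FDR under 0.05 were unchanged ones, more than the threshold allows. Of changed genes, 84.6% were called at a log2 fold change of 1.5 and 94.2% at 2. Strain by age was simulated in a single draw, with each changed gene raised by a log2 fold change of 2 in NOD.H-2b at 6M. There, 6.04% of calls were on unchanged genes and 70.4% of changed genes were called. Smaller changes than these were not simulated.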

Additional observations from a re-analysis of the deposited data

Results flagged for a closer look

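In 37 of the 90 named genes the change from 2M to 6M differed between BALB/c and NOD.H-2b (strain by age in the fit of 18 mice, edgeR's quasi-likelihood test, FDR under 0.05). Of all 19117 genes tested, 7.04% had a higher and 9.09% a lower change in NOD.H-2b. Gprc5b, Lrrc8c, Pecam1, Pllp and Plcd1 were named for their p in this same test, so their place in the count was fixed in advance. Each difference given here is on the log2 scale, NOD.H-2b minus BALB/c, from 3 mice in each group. Of the 90 named genes 65 were called in BALB/c. Most of the named genes, DEGs or not, were chosen for their change in the BALB/c mice that enter the test. The count of 37 is therefore a description and not comparable with the shares of all genes.

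Secretory and epithelial genes made up 15 of the 37. The difference was 0.56 for Scgb2b2, 0.84 for Scgb1b2 and 1.08 for Kcnn4, which fell in BALB/c. It was -0.71 for the lipocalin Mup4 and -0.60 for Pip, neither of which was called within BALB/c, and -0.53 for Gm1553. The vesicle genes Clcn3 (-0.56) and Syt7 (-1.88), the transcription factor Foxp2 (-1.33), the adhesion genes Epcam (-0.57), Dsp (-0.51) and Itga6 (-0.43) and the ductal genes Slc34a2 (-2.16) and Ltf (-0.40) had lower changes in NOD.H-2b. Dsp had log2 fold changes of 0.02 for BALB/c and -0.48 for NOD.H-2b and Itga6 of -0.12 for BALB/c and -0.55 for NOD.H-2b. The receptor Fzd10 had a difference of -1.95, from 1.97 for BALB/c and 0.02 for NOD.H-2b.

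Metabolic genes and ER genes made up 11. Ggt1 had a difference of -1.98, Scd1 of -0.58 and Elovl5, which was called higher in BALB/c, of 0.54. The beta oxidation genes Acadm and Slc27a2 had -0.58 and -0.45, and the mitochondrial mt-Co1 had -0.36, from 0.31 for BALB/c and -0.05 for NOD.H-2b. The difference was -0.44 for Hk2 and -0.64 for Cyp2f2, -0.64 for Pdia4 and -0.50 for Pdia6, and -3.06 for Cidea, from 0.86 for BALB/c and -2.20 for NOD.H-2b.

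The remaining 11 were of other kinds. Jchain, called higher within BALB/c, had a difference of -1.98, Fgl2 of -2.05, Ankdd1a of -1.76, Mcpt4 of -1.38, Igf1 of -0.95 and C130074G19Rik of 0.73. Besides Ggt1, 5 genes were named because their p for strain by age was smallest. Gprc5b, an orphan receptor, had log2 fold changes of -0.18 for BALB/c and 1.42 for NOD.H-2b (difference 1.60, adjusted p = 3.1e-04), Lrrc8c, a part of volume-regulated anion channels, of -0.26 for BALB/c and 1.31 for NOD.H-2b (1.58, adjusted p = 3.3e-04) and Pecam1, an adhesion molecule of endothelium and leukocytes, of -0.35 for BALB/c and 1.37 for NOD.H-2b (1.72, adjusted p = 4.5e-04). Pllp, a membrane protein of epithelia and myelin, had 0.03 for BALB/c and -1.50 for NOD.H-2b (-1.53, adjusted p = 5.9e-05) and the phospholipase Plcd1 had 0.99 for BALB/c and -0.63 for NOD.H-2b (-1.63, adjusted p = 1.4e-04).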

How the results depend on the processing

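For BALB/c 6M against 2M, higher DEGs numbered 441 with no filter on low counts, 135 with at least 10 counts in every mouse, 82 with glmTreat and 169 without immunoglobulin genes, against 260. Lower DEGs numbered 44 with no filter, 34 with DESeq2's test and 1 with glmTreat, against 19. With no filter 1082 genes were called higher and 843 lower, and 565 were called lower with total counts only and 198 in the fit of 18 mice. For 6M against 4M, DEGs were 11 higher and 5 lower with DESeq2, 11 and 6 in the fit of 9 mice, and 5 were lower with the replicate block. The cause of these differences was not tested, apart from the number of genes tested (28131 with no filter and 14923 with at least 10 counts). Leaving out each mouse in turn gave 167 to 405 higher and 8 to 68 lower DEGs and 276 to 1223 and 107 to 1211 called genes for 6M against 2M, 214 to 391 and 27 to 55 DEGs for 4M against 2M, and 0 to 22 and 2 to 5 DEGs for 6M against 4M. Strain by age gave 639 to 1541 genes with a higher and 919 to 2067 with a lower change in NOD.H-2b.

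The deviations of same-numbered mice of 2M and 6M had weak positive correlations (0.0461, 0.0594 and 0.0350), each the highest of its number. Those of the other pairs were negative (-0.0350 to -0.00671). Whether mice of one number share something was not tested. The labels do not say what the number stands for, so the main fit did not take the numbers as pairs. With the replicate number as a block, 281 and 19 genes were DEGs and 607 and 350 were called. Of 65 named genes called, 37 stayed called under all 10 alternatives other than glmTreat and leaving out mice, and none changed direction. Total counts only moved the median of all genes by -0.0392 on the log2 scale, and the other scalings by less. Depth limits genes of a few counts, among them most immunoglobulin variable genes at 2M.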

Other observations

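The rise of immunoglobulin transcripts was found at all 3 loci. Of the tested variable genes 43 of 60 were called higher at the heavy chain locus, 27 of 58 at the kappa locus and 2 of 2 at the lambda locus, with median log2 fold changes of 4.70, 4.71 and 4.88. With genes of at most 3 counts in every 2M mouse set at their lower bound, the medians were 3.87, 4.62 and 3.49. Such genes numbered 22, 8 and 1, and passed the filter only through the 6M mice. The joining genes were called in 4 of 4 at the heavy chain and 5 of 5 at the kappa locus. Heavy chain constant genes summed to 21.3, 33.6 and 45.8 CPM at 2M and 482, 818 and 545 CPM at 6M. Igha had the highest level of them, while Ighg2b had at most 3 counts in every 2M mouse and 1.23, 3.34 and 4.12 CPM at 6M, at least 57.9-fold higher, and Ighg2c had 0.0175, 0.0655 and 0 and 0.672, 1.64 and 1.27 CPM. The annotation names Ighg2c, the allele of the reference strain, and BALB/c mice carry Ighg2a in its place, so this row measures reads that match the reference allele.

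Of the 33 higher DEGs that were neither protein-coding nor immunoglobulin genes, the most abundant was Gm5570, a long noncoding RNA with 292, 253 and 211 CPM at 2M and 958, 942 and 1009 CPM at 6M (log2 fold change 1.95 ± 0.11, adjusted p = 1.2e-04), chosen after its values were seen. The X-linked lymphocyte-regulated genes Xlr4c (7.81, 7.78 and 7.07 and 16.9, 19.7 and 18.7 CPM, log2 fold change 1.29 ± 0.09, adjusted p = 1.2e-05) and Xlr4a (4.04, 4.09 and 4.9 and 9.53, 11.6 and 11.8 CPM, log2 fold change 1.34 ± 0.12, adjusted p = 7.1e-05), near-identical copies whose reads can be shared, rose together and were chosen likewise. The bone morphogenetic protein receptor Bmpr1b had 3.36, 1.79 and 2.65 CPM at 2M and 5.7, 7.85 and 6.67 CPM at 6M (log2 fold change 1.38 ± 0.22, adjusted p = 0.00773) and kept its call without each mouse in turn.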
